A study of Rattus norvegicus with 24 samples.

Results

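The genes described here are named for the voltage-gated calcium and sodium channels. They are all genes of the deposited table whose symbol starts with Cacna, Cacnb, Cacng or Scn followed by a digit. The rule found 39 genes among 20318 features, and it used no measured value. By symbol they fall into 9 pore-forming calcium channel subunits, 16 auxiliary calcium channel subunits, 10 pore-forming sodium channel subunits and 4 auxiliary sodium channel subunits. All Cacng genes thus count as calcium auxiliary and Scn7a as a sodium pore, whatever their main role. A mean of at least 10 normalised counts over all libraries was required for testing, and 36 of the 39 genes met it, among 16119 tested features. The 3 that did not were Cacng1, Scn10a and Scn11a.

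The 24 libraries hold RNA from the hippocampus of female rats that were 6 months old when operated on, in 4 groups. Treatment rats had their ovaries removed and were given vehicle during 3 weeks and estradiol (E2) during the next 2 weeks (n = 5). Prevention rats also lost their ovaries and were given estradiol during 5 weeks (n = 5). OVX rats, without ovaries, were given vehicle during 7 weeks (n = 7), and so were SHAM rats, whose ovaries were left in place (n = 7). The labels give neither the estradiol dose nor the time between surgery and tissue collection. They also do not say that each library came from a separate animal, so p-values measure the spread between these libraries.

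Voltage-gated calcium channels open when a neuron depolarises and let in calcium, which triggers transmitter release, dendritic spikes and signalling to the nucleus. Voltage-gated sodium channels carry the rising phase of the action potential. In both families a single large pore-forming protein senses voltage and conducts the ion, and auxiliary subunits set its delivery to the membrane and its gating. Estradiol acts on hippocampal neurons through nuclear receptors, which bind DNA at estrogen response elements, and through receptors at the membrane.

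Promoter sequences are shown for Cacna1a, Cacna1e and Scn8a because each of these 3 pore genes had the smallest unadjusted p of a channel gene in 1 of the comparisons with OVX. They are credited to RefSeq (rat assembly GRCr8) and run from 250 bases before to 50 bases after the annotated transcription start. They are written 5′ to 3′ on the strand of the gene, with GC boxes (GGGCGG on either strand) in capitals.
Cacna1a promoter, chr19:40650419-40650718, minus strand: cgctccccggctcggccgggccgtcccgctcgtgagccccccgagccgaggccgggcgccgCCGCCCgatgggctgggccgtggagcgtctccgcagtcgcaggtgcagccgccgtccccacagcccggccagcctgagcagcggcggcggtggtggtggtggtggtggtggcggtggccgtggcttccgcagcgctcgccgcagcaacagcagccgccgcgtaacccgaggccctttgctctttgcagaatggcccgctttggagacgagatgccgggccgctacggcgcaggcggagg
Cacna1e promoter, chr13:69444761-69445060, minus strand: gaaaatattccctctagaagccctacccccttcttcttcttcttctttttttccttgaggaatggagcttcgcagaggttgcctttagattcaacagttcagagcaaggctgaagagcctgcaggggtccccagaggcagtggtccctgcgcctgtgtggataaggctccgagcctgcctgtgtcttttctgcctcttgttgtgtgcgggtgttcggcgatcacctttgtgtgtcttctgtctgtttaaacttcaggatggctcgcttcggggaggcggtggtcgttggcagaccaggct
Scn8a promoter, chr7:133860977-133861276, plus strand: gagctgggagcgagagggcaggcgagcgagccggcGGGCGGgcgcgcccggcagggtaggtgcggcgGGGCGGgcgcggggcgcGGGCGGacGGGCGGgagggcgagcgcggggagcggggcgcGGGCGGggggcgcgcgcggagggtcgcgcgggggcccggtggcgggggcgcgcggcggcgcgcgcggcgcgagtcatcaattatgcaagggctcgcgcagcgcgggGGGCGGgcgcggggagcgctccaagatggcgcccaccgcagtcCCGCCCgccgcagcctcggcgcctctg

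The Scn8a window held 7 GC boxes and 84.7% G or C bases, the Cacna1a window held 1 GC box and 76.0%, and the Cacna1e window held 0 GC boxes and 53.7%. RefSeq promoters were found for 27 of the 39 genes, 30 promoters in all. The full estrogen response element (GGTCA, then 3 bases of any kind, then TGACC) was in 0 of these 30 promoters and in 9 of the 33469 promoters of the table (0.0269%). A single arm of it, AGGTCA on either strand, was in 3 of 30 channel promoters (10%), against 16.2% of all promoters. The CRE (TGACG followed at once by TCA), the binding motif of the activity-regulated factor CREB, was in 0 of 30 and in 1.83% of all. GC boxes were in 16 of 30 channel promoters (53.3%), those of 14 genes, against 33.1% of all promoters, and the median G and C content was 62.4% against 51.7%. The 3 promoters with the single arm are shown as windows of 30 bases, with the match in capitals.
Cacna1f, chrX:17568333-17568362, minus strand: tcccccgccccaTGACCTtaatctctctaa
Cacng8, chr1:74691147-74691176, minus strand: atgacttcactcTGACCTccgcctctgcag
Scn9a, chr3:71701491-71701520, minus strand: gactaagccatcAGGTCAcataaagtgact
These matches are letters in a window and say nothing of binding. Several of the genes lie next to each other in GRCr8, with no protein-coding gene between them: Cacng6, Cacng8 and Cacng7 on chromosome 1, Cacng1, Cacng4 and Cacng5 on chromosome 10, Scn3a and Scn2a, and Scn1a, Scn9a and Scn7a on chromosome 3, and Scn2b and Scn4b on chromosome 8.

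Some properties of the libraries touch the results. Of 10 hippocampal markers 9 met the filter and Spink8 did not (mean 5.04 normalised counts). Prox1, a marker of dentate granule cells, ran from 2040 to 4180 normalised counts and Neurod6, a marker of pyramidal neurons, from 3670 to 7410. In 5 libraries the thalamus score (the mean log2 value of 10 thalamic marker genes) was 10.18 to 10.55, against 8.32 to 9.54 in the other 19, and Tcf7l2, a defining thalamic gene, reached 1573 to 3357 normalised counts. These were Treatment replicate 6, Prevention replicates 1 and 4, OVX replicate 2 and SHAM replicate 5. The choroid plexus score, over 9 marker genes, ran from 5.83 to 12.2, with medians of 6.74 in Treatment, 8.79 in Prevention, 8.56 in OVX and 6.48 in SHAM libraries, and its marker Ttr ran from 281 to 137000 normalised counts. The libraries also fall into 2 sets by the feature LOC257642, whose log2 value was over 16 in the high set (Treatment replicates 1 and 2 and every Prevention library) and lower in the other 17 libraries. Every Prevention library is in the high set and every OVX and SHAM library in the low set, so the set and the group cannot be told apart in those comparisons. High-set libraries had an estimated depth of 39.6 to 53.2 M reads (M for mega), and low-set libraries one of 26.8 to 40.3 M. A set term, estimated from the Treatment group alone, gives the second values below. It sets Treatment replicates 1 and 2 against replicates 5, 6 and 7, and replicate 6 is a library with a high thalamus score. The set and the thalamus score are thus not fully apart in that term.

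No channel gene passed the threshold in any of the 6 comparisons between groups. Changes are differences of group means of log2(normalised count + 1), tested with limma over all 16119 features with Benjamini-Hochberg adjustment at 0.05. In Treatment against OVX, 0 of 36 channel genes passed, beside 0% of all features. The same count was 0 of 36 in Prevention against OVX, beside 0.304% of all features, and in OVX against SHAM, beside 0%. It was also 0 of 36 in Treatment against Prevention (0% of all features), in Prevention against SHAM (0.354%) and in Treatment against SHAM (0.0062%). In every comparison the groups overlapped for all 36 channel genes. Groups without overlap were found for 0.161% of all features higher and 0.136% lower in Treatment than in OVX, and for 1.2% higher and 0.664% lower in Prevention than in OVX. The shares were 0.0186% higher and 0.0062% lower in OVX than in SHAM, 0.546% higher and 0.651% lower in Treatment than in Prevention, 1.57% higher and 0.912% lower in Prevention than in SHAM, and 0.292% higher and 0.192% lower in Treatment than in SHAM. The median SE of a channel gene's change was 0.105 in OVX against SHAM and 0.115 in Prevention or Treatment against OVX.

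Below the threshold, the channel genes leaned one way in several comparisons. The OVX mean was below the SHAM mean for 27 of 36 channel genes and above it for 9 (25%), beside 51.7% of all features with a positive change, and the median change was -0.07, beside 0.0043 for all features. The unadjusted p was under 0.05 for 5 of them (13.9%), beside 6.25% of all features, and all 5 were lower in OVX, beside 3.37% of all features. The Prevention mean was above the OVX mean for 29 of 36 (80.6%), beside 50.2% of all features, with a median change of 0.11. Here 8 (22.2%) had an unadjusted p under 0.05, beside 18.6%, and all 8 were higher in Prevention, beside 10.1%. Treatment against OVX had 20 of 36 positive changes (55.6%, beside 49.4%) with a median of 0.02, and 2 genes (5.56%, beside 7.19%) with an unadjusted p under 0.05, both higher in Treatment, beside 4.1%. Treatment against Prevention had 8 of 36 positive changes (22.2%, beside 48.9%), and 3 (8.33%, beside 5.38%) with an unadjusted p under 0.05, all lower in Treatment, beside 2.62%. Prevention against SHAM had 26 of 36 positive changes (72.2%, beside 50.9%) and 0 with an unadjusted p under 0.05, where 13.3% of all features had one. Treatment against SHAM had 14 of 36 positive changes (38.9%, beside 51.6%) and 2 (5.56%, beside 6.1%) with an unadjusted p under 0.05, 1 in each direction. With the set term, 3 channel genes (8.33%, beside 3.55% of all features) had an unadjusted p under 0.05 in Prevention against OVX, 2 of them higher in Prevention (5.56%, beside 1.41%), and 23 changes were positive (63.9%, beside 51.9%). In Treatment against SHAM the set term gave 7 (19.4%, beside 5.22%), 6 of them lower in Treatment (16.7%, beside 2.73%). It gave 5 in OVX against SHAM (13.9%, beside 6.5%), 1 in Treatment against OVX (2.78%, beside 3.49%), 5 in Treatment against Prevention (13.9%, beside 3.91%) and 2 in Prevention against SHAM (5.56%, beside 4.8%). The sign of the change differed with the set term for 10 of 36 channel genes in Prevention against OVX, 9 in Prevention against SHAM, 10 in Treatment against OVX, 8 in Treatment against Prevention and 5 in Treatment against SHAM. How many of all features changed sign was not computed, so these counts are not particular to channel genes as far as is known.

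These counts below the threshold also moved when 1 library was left out. The share of all features with an unadjusted p under 0.05 was not computed for these fits. The moves are therefore not a result about the channel genes. In Treatment against OVX the count of 2 ran from 0, without OVX replicate 2 or 3, to 6, without Treatment replicate 6. It was 4 without OVX replicate 4, and 1 without Treatment replicate 1, 5 or 7, Prevention replicate 5, OVX replicate 1 or 6, or SHAM replicate 3 or 4. In Treatment against SHAM it was 6 without Treatment replicate 2, 4 without SHAM replicate 5 and 1 without SHAM replicate 6. In OVX against SHAM it ran from 3, without OVX replicate 2 or 6 or SHAM replicate 6 or 7, to 7, and in Treatment against Prevention it was 5 without Treatment replicate 2. In Prevention against SHAM it ran from 0 to 3, the highest without Prevention replicate 1 or SHAM replicate 5, and 8 other single libraries left out gave 1 or 2. In Prevention against OVX it ran from 6 to 9. The 3 comparisons with OVX share the same 7 OVX libraries, so a low value there enters all of them.

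**Figure D1:**
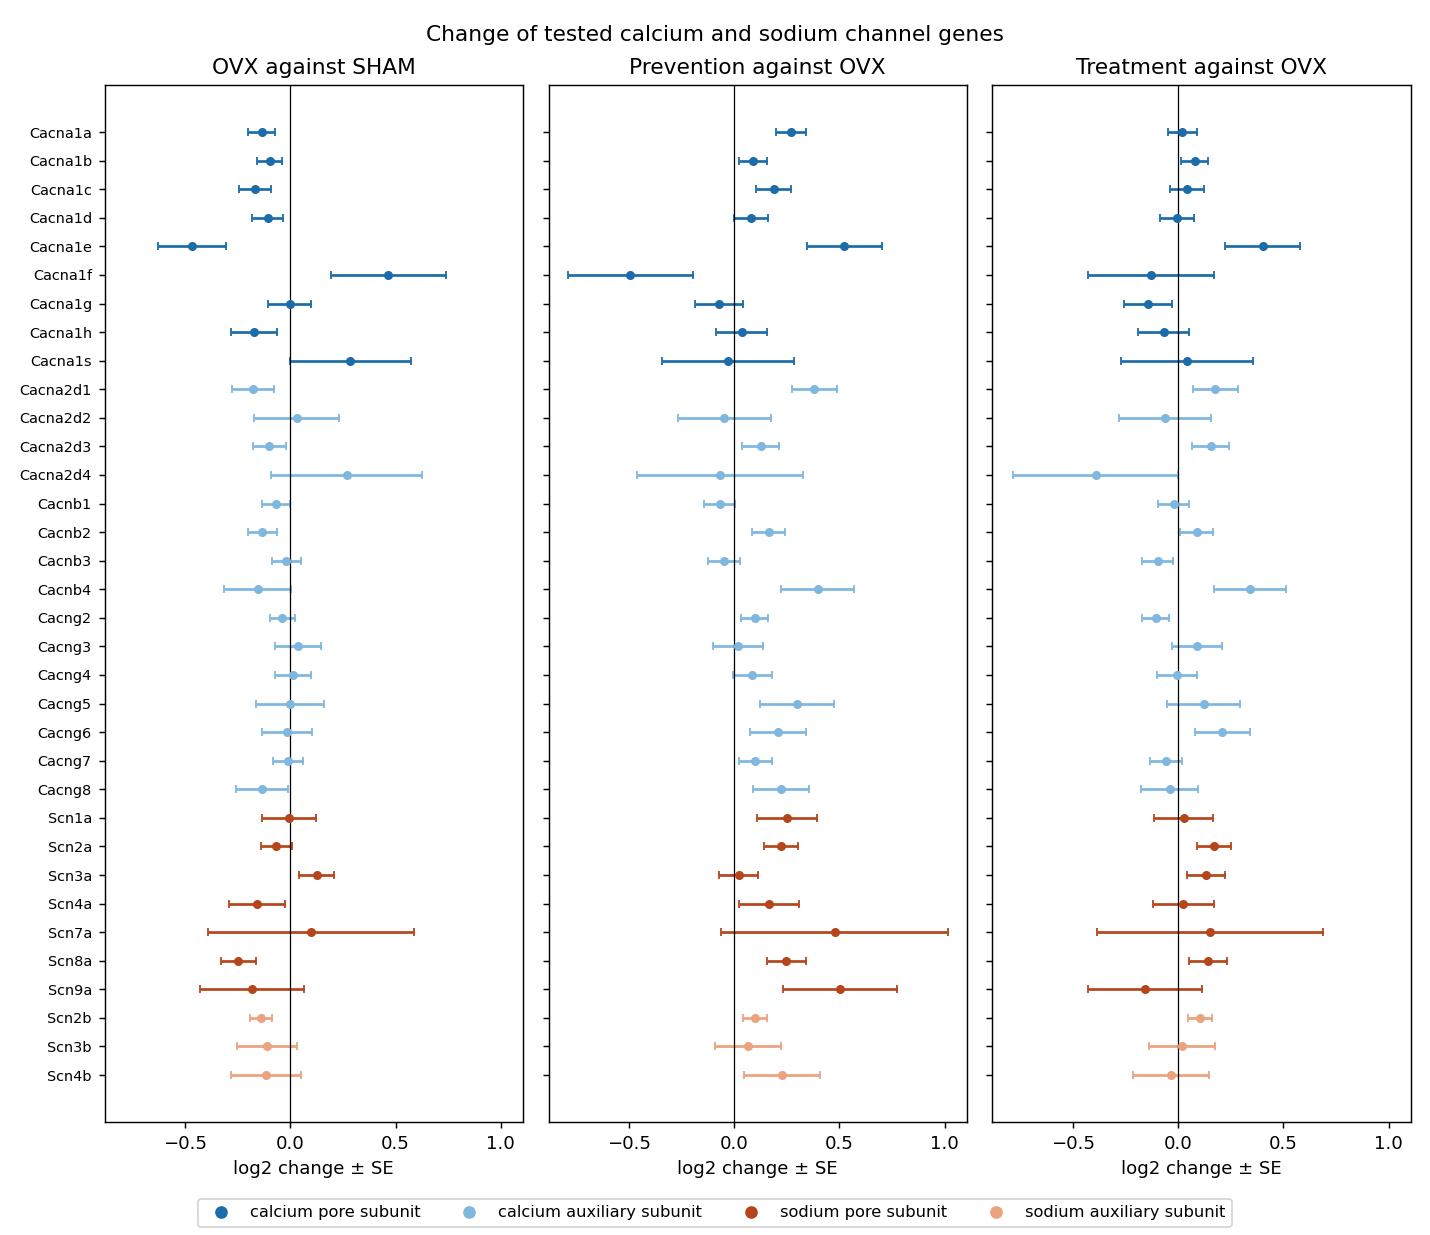
Change of 34 of the tested channel genes on the log2 scale (x axis) with its SE as a bar, for OVX against SHAM, Prevention against OVX and Treatment against OVX; colours mark the 4 classes. Most points lie left of 0 for OVX against SHAM and right of 0 for Prevention against OVX, Cacna1e is far out in all 3 panels, and Scn7a has the widest bars.

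By class, the medians below stand beside 0.0043 for all features in OVX against SHAM and 0.00081 in Prevention against OVX. Of the 9 calcium pore genes, 7 were lower in OVX than in SHAM (median -0.11), and 6 were higher in Prevention than in OVX (median 0.08). All 8 tested sodium pore genes were higher in Prevention than in OVX (median 0.24) and also higher in Prevention than in SHAM (median 0.20). Positive changes made up 50.2% and 50.9% of all features in these 2 comparisons. Against SHAM no sodium pore gene had an unadjusted p under 0.05. The changes of Scn8a (0.0027, SE 0.0907) and Scn4a (0.0089, SE 0.144) there were far smaller than their SE. The 15 tested calcium auxiliary genes had medians of -0.02 in OVX against SHAM and 0.10 in Prevention against OVX. All 4 sodium auxiliary genes were lower in OVX than in SHAM (median -0.11) and higher in Prevention than in OVX (median 0.08). With 1 library left out, the Prevention against OVX medians ran from 0.03 (without Prevention replicate 3) to 0.15 (without Prevention replicate 4) for calcium pore, from 0.07 to 0.14 for calcium auxiliary, from 0.18 to 0.26 for sodium pore and from 0.06 to 0.16 (without Prevention replicate 4) for sodium auxiliary genes. The OVX against SHAM median of the calcium auxiliary genes ran from -0.06 (without OVX replicate 7) to -0.0084. With the set term, the Prevention against OVX medians were -0.13 for calcium pore, 0.18 for calcium auxiliary, 0.31 for sodium pore and 0.21 for sodium auxiliary genes. The set coefficient itself was positive for all 9 calcium pore genes (median 0.27), and for 17 of 36 channel genes (47.2%), beside 49.3% of all features. Of the 5 libraries with a thalamus score over 10, Prevention holds 2 and each other group 1. The Treatment library among them, replicate 6, is of the low set and so enters the set coefficient. Medians over a class are descriptions here, since its members share libraries.

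Among the calcium pore genes, those of the neuronal P/Q-type, N-type and R-type channels drive transmitter release and dendritic calcium entry. Cacna1a, the pore of the P/Q-type channel, averaged 9418 ± 952 normalised counts in Treatment libraries, 11194 ± 1065 in Prevention, 9278.5 ± 832 in OVX and 10175 ± 550 in SHAM (SD, n = 5, 5, 7 and 7). The 5 Prevention libraries had 11193, 11329.9, 12440.2, 9500.4 and 11505.5 normalised counts of Cacna1a, against a range from 8385 to 10803 (median 9197) in OVX libraries. Of the 5 Prevention libraries 4 lay above every OVX library, and Prevention replicate 4 lay within the OVX range. Its change in Prevention against OVX was 0.27 (SE 0.0695, limma adjusted p = 0.0649), the smallest adjusted p of any channel gene, with a 95% interval of 0.13 to 0.41. It was 0.04 with the set term. The Treatment libraries had 10149.9, 10484, 8130.2, 8876 and 9448 normalised counts of Cacna1a in the order of replicates 1, 2, 5, 6 and 7. Replicates 1 and 2, the high-set libraries, thus lay above the other 3. Against Prevention, the Treatment change of Cacna1a was -0.25 (SE 0.0751, unadjusted p = 0.00282, limma adjusted p = 0.559), and within the high set it was -0.11. In OVX against SHAM it was -0.14 (SE 0.0634, limma adjusted p = 0.795), and in Prevention against SHAM 0.13 (SE 0.0695, limma adjusted p = 0.415), which turned to -0.09 with the set term.

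Cacna1e, the pore of the R-type channel of dendrites and spines, was lowest on average in OVX libraries. Its Treatment libraries had 8136, 8156, 6502, 5962 and 7882 normalised counts, and its Prevention libraries had 7000.2, 7492, 10535, 6959 and 8038. OVX libraries ran from 3336 to 8092 (median 5786) and SHAM libraries from 5516 to 9100.1 (median 8055). The OVX replicates 1, 2 and 3 lay below every library of the other 3 groups, and the highest OVX library, replicate 7, lay within the SHAM range. The change was -0.47 (SE 0.161, unadjusted p = 0.00809, limma adjusted p = 0.795) in OVX against SHAM, where both groups are of the low set. It was 0.52 (SE 0.177, unadjusted p = 0.00684, limma adjusted p = 0.121) in Prevention against OVX, and 0.25 with the set term. In Treatment against OVX it was 0.40 (SE 0.177, unadjusted p = 0.0323, limma adjusted p = 0.69), the smallest p of a channel gene in that comparison, and 0.29 within the low set. Without OVX replicate 3 the OVX against SHAM change of Cacna1e was -0.35, and without OVX replicate 7 it was -0.56. Without the 5 libraries with a thalamus score over 10 it was -0.45.

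Cacna1b, the pore of the N-type channel of presynaptic terminals, had means of 6239 ± 777.9 in Treatment, 6271 ± 509.5 in Prevention, 5884.5 ± 388.4 in OVX and 6293 ± 357.1 in SHAM libraries. It had the smallest p of a channel gene for the library set, with a coefficient of 0.30 (SE 0.0835, unadjusted p = 0.00139, limma adjusted p = 0.281). Within the Treatment group, the high-set replicates 1 and 2 had 7379.6 and 6709.5 normalised counts of Cacna1b, against 5842, 5675 and 5589 in the low-set replicates 5, 6 and 7. At an unadjusted p under 0.05 the set coefficient held 5 channel genes (13.9%, beside 9.86% of all features), all higher in the high set, beside 5.35%: Cacna1a, Cacna1b, Cacna1c, Cacna1d and Scn8a. None of the 36 passed the adjusted threshold for the set, beside 0.0248% of all features.

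**Figure D2:**
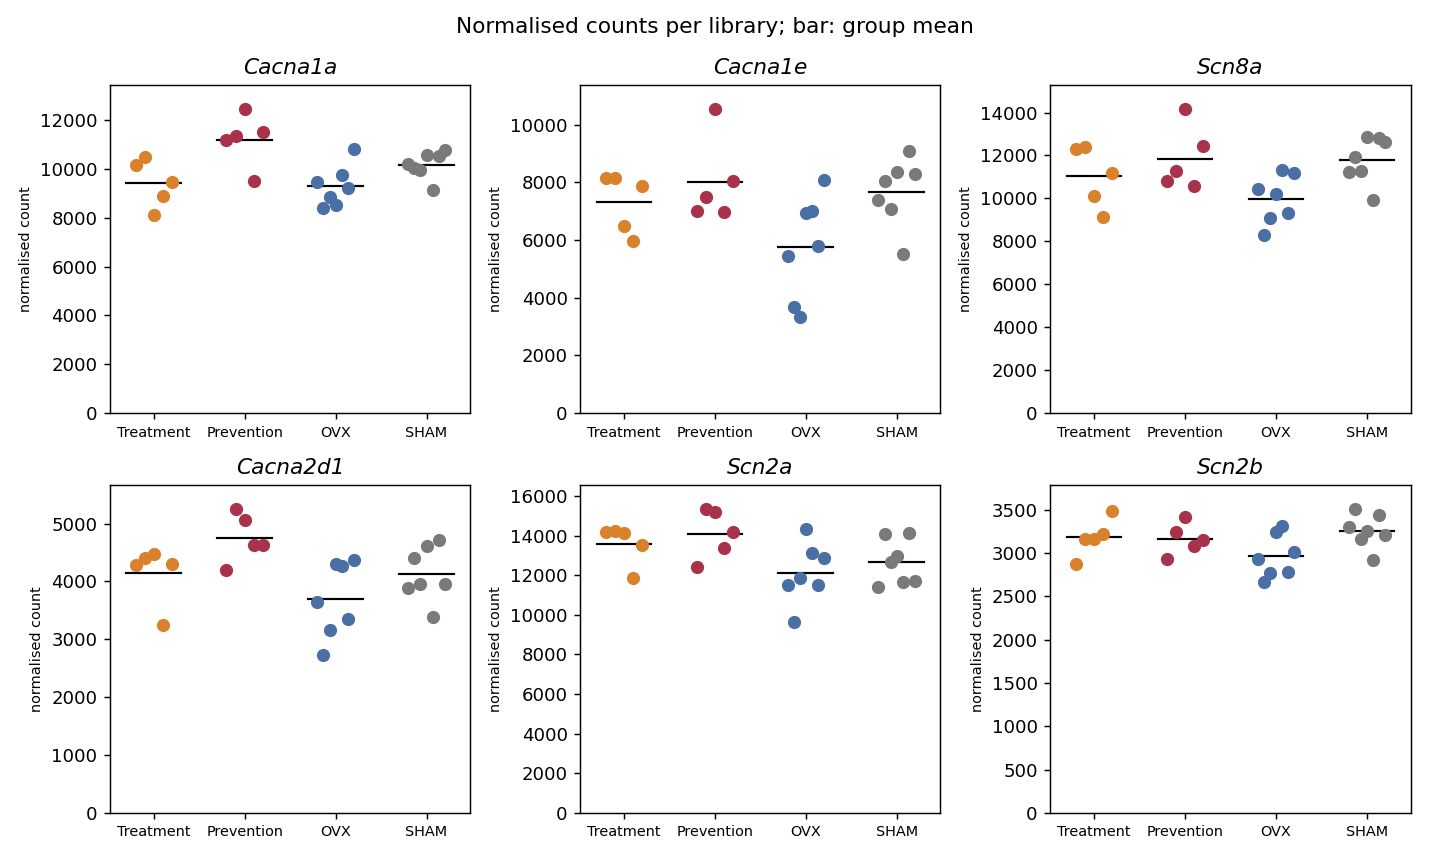
Normalised counts (y axis) of 6 channel genes in every library, by group, with a bar at the group mean. For Cacna1a 4 of 5 Prevention points lie above all OVX points, for Cacna1e 3 OVX points lie below all points of the other groups, and in all 6 panels each group overlaps each other group.

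The L-type pores Cacna1c and Cacna1d link calcium entry to gene expression. Cacna1c averaged 2548 ± 293.8 in Treatment, 2827 ± 434.1 in Prevention, 2469 ± 234.6 in OVX and 2766 ± 158.4 normalised counts in SHAM libraries, and its OVX against SHAM change was -0.17 (SE 0.0757, unadjusted p = 0.0367, limma adjusted p = 0.795). For Cacna1d the means were 4071 ± 560 in Treatment, 4312 ± 535.7 in Prevention, 4069 ± 374.2 in OVX and 4376 ± 276.3 in SHAM libraries. The other L-type pores are known from retina (Cacna1f) and skeletal muscle (Cacna1s), and both were near the filter: Cacna1f ran from 10.93 to 72.46 normalised counts over all libraries and Cacna1s from 5.567 to 23.73. The T-type pores Cacna1g and Cacna1h open at low voltages and support burst firing. Cacna1g averaged 4067 ± 367.4 in Treatment, 4309.9 ± 791.5 in Prevention, 4513 ± 634.3 in OVX and 4520.1 ± 609.5 in SHAM libraries. Cacna1h averaged 7099 ± 853.2 in Treatment, 7703.5 ± 1450.5 in Prevention, 7470.1 ± 1068 in OVX and 8433.5 ± 1243 in SHAM libraries. Its Treatment against SHAM change was -0.24 (SE 0.12, unadjusted p = 0.0551, limma adjusted p = 0.811), among the 3 smallest p of that comparison. The T-type gene Cacna1i was not analysed here.

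Auxiliary calcium channel subunits of 3 kinds were measured: the extracellular Cacna2d subunits, which promote channel density at synapses, the cytosolic beta subunits (Cacnb), and the gamma genes (Cacng). Among these auxiliary genes Cacna2d1, the binding site of gabapentin, came nearest to the threshold. Its 5 Prevention libraries had 4204, 5253, 5055.5, 4629 and 4636 normalised counts, against 3638, 2729.8, 3169, 4303, 4261, 3345 and 4377 in the 7 OVX libraries. Of the Prevention libraries 4 lay above every OVX library, and Prevention replicate 1 lay within the OVX range. The Prevention against OVX change of Cacna2d1 was 0.38 (SE 0.108, limma adjusted p = 0.0794), with a 95% interval of 0.16 to 0.60, and 0.25 with the set term. In Prevention against SHAM it was 0.21 (SE 0.108, limma adjusted p = 0.424), and 0.08 with the set term. Its Treatment libraries had 4279.6, 4413, 4475, 3253 and 4297.5 normalised counts, of which the lowest, replicate 6, is the Treatment library with the high thalamus score. Cacna2d2 averaged 2088 ± 534.6 in Treatment, 2092.5 ± 452.6 in Prevention, 2253.5 ± 842.2 in OVX and 2127 ± 484.6 in SHAM libraries, and the group means differed by less than each SD. Cacna2d3 averaged 6108 ± 759.5 in Treatment, 5967 ± 542 in Prevention, 5476 ± 548.8 in OVX and 5866 ± 614.1 in SHAM libraries. Cacna2d4, best known from the retina, had group means between 12.94 and 16.53 normalised counts.

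Beta subunits bind the pore from the cytosol and bring it to the membrane. Cacnb4, which is mutated in the lethargic mouse, had the widest spread of the 4. Its Treatment libraries had 2908, 2090.5, 2398, 2115 and 2527.5 normalised counts and its Prevention libraries 2241, 3318, 1910.3, 3105 and 2139.6, while OVX libraries ran from 1194 to 2799.6 (median 2064) and SHAM libraries from 1627 to 2652 (median 2164). In Prevention against OVX the change of Cacnb4 was 0.40 (SE 0.173, unadjusted p = 0.0306, limma adjusted p = 0.218), and in Treatment against OVX it was 0.34 (SE 0.173, unadjusted p = 0.0595, limma adjusted p = 0.699). All 4 groups overlapped for this gene, and the Prevention libraries fell into 2 high and 3 low values. The smallest p for Cacnb2 was in Prevention against OVX, at 0.16 (SE 0.0764, unadjusted p = 0.0427, limma adjusted p = 0.25). Cacnb1 and Cacnb3 had group means between 5652 and 6223 and between 6047 and 6544 normalised counts, with SDs of 389.5 to 664.8.

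Most gamma genes of the brain encode partners of AMPA-type glutamate receptors: Cacng2 (stargazin), Cacng3, Cacng4 and Cacng8 speed receptor delivery to synapses, and Cacng5 and Cacng7 are a second group of such partners. Cacng2 was lowest in Treatment, with 2023, 2520.4, 2400.4, 2435 and 2386 normalised counts, against 2925.5, 3023, 2355, 2598 and 2661.5 in Prevention libraries. Prevention replicate 3 was the only Prevention library below the highest Treatment library. Its Treatment against Prevention change was -0.20 (SE 0.0696, unadjusted p = 0.00744, limma adjusted p = 0.698) and -0.26 within the high set, where 2 Treatment libraries stand against 5 Prevention libraries. In Treatment against SHAM the change of Cacng2 was -0.14 (SE 0.0645, unadjusted p = 0.0357, limma adjusted p = 0.76), and -0.09 without Treatment replicate 1. The other 5 of these receptor partners, Cacng3, Cacng4, Cacng5, Cacng7 and Cacng8, had no unadjusted p under 0.05 in any of the 6 comparisons. Cacng8 averaged 5606 ± 1125 in Treatment, 6707 ± 1112 in Prevention, 5733 ± 840 in OVX and 6314 ± 1072 in SHAM libraries. Cacng6 and Cacng1 are the gamma genes known from muscle. Cacng6 had group means of 146.8 to 171.5 normalised counts, and Cacng1, which was not tested, had 2.03 ± 0.963 in Treatment, 3.57 ± 2.38 in Prevention, 2.39 ± 2.26 in OVX and 3.96 ± 2.59 in SHAM libraries.

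Among the sodium pore genes, Scn8a, the main sodium channel of mature axon initial segments and nodes of Ranvier, had the smallest p of any channel gene in OVX against SHAM. OVX libraries had 10428, 8301, 9089.5, 10187, 11307, 9313 and 11166 normalised counts, against 11214, 11929, 11269, 12857, 9903, 12797 and 12639 in SHAM libraries. Of the 7 SHAM libraries, 4 lay above every OVX library, and the lowest SHAM library was replicate 5, the one with the high thalamus score. The change was -0.25 (SE 0.0828, unadjusted p = 0.00672, limma adjusted p = 0.795), with a 95% interval of -0.42 to -0.07, and -0.24 without the 5 libraries with a thalamus score over 10. In Prevention against OVX the change of Scn8a was 0.25 (SE 0.0907, unadjusted p = 0.0115, limma adjusted p = 0.147), and -0.04 with the set term. The Treatment libraries had 12290.4, 12416, 10098, 9123 and 11193 normalised counts of Scn8a, with the high-set replicates 1 and 2 the highest.

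Scn2a, the channel of excitatory neurons at the proximal initial segment, was highest on average in the 2 estradiol groups. Its Treatment libraries had 14160.3, 14229.5, 14124, 11870.3 and 13507 normalised counts and its Prevention libraries 12416, 15340.1, 15185, 13389 and 14169. OVX libraries ran from 9631 to 14350.3 (median 11835) and SHAM libraries from 11389 to 14108 (median 12662), so that all groups overlapped. The change was 0.17 (SE 0.0806, unadjusted p = 0.0456, limma adjusted p = 0.69) in Treatment against OVX, 0.22 (SE 0.0806, unadjusted p = 0.0107, limma adjusted p = 0.142) in Prevention against OVX and 0.16 (SE 0.0806, unadjusted p = 0.0627, limma adjusted p = 0.409) in Prevention against SHAM. With the set term the changes were 0.13, 0.11 and 0.05 in the same order. Scn1a, the main pore of fast-spiking interneurons, averaged 4675 ± 279.2 in Treatment, 5502 ± 825.7 in Prevention, 4614 ± 585.5 in OVX and 4757 ± 1478 in SHAM libraries, and its highest value was 7813 in SHAM replicate 5. Scn3a, best known from the developing brain, had 2076, 2097, 2404, 2218 and 1786.5 normalised counts in Treatment libraries, against a range from 1602 to 2255 (median 1691.5) in SHAM libraries. All Treatment libraries lay above 6 of the 7 SHAM libraries, and SHAM replicate 4 lay above 4 of the 5 Treatment libraries. Its Treatment against SHAM change was 0.26 (SE 0.0909, unadjusted p = 0.00859, limma adjusted p = 0.634), the smallest p of a channel gene there, and 0.27 within the low set.

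The remaining sodium pores are best known from outside the hippocampus. Scn9a, of sensory and hypothalamic neurons, had 215.7, 125.2, 138.8, 297 and 195.1 normalised counts in Treatment libraries, against 309.6, 349, 220.2, 442.3 and 204.2 in Prevention libraries. Its change in Treatment against Prevention was -0.66 (SE 0.292, unadjusted p = 0.0338, limma adjusted p = 0.893), the largest of a channel gene in that comparison, and the 2 groups overlapped. With 1 library left out, this change of Scn9a ran from -0.83 (without Treatment replicate 6) to -0.51 (without Prevention replicate 4). Both of these libraries had a thalamus score over 10, and the part of thalamic RNA in Scn9a was not tested. Scn4a, the skeletal muscle channel, had group means between 195.2 and 217.2 normalised counts. Of 5 muscle markers, Acta1 (mean 541 normalised counts), Myh1 (203) and Mylpf (51.9) met the filter, Tnnt3 (9.17) and Ckm (4.17) did not, and the part of muscle RNA in Scn4a was not tested. Scn10a and Scn11a, the channels of pain-sensing neurons, had group means of 5.61 to 8.26 and 7.94 to 10.4 normalised counts and were not tested. Scn7a is described after the auxiliary subunits.

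The sodium auxiliary genes encode beta subunits, single-span proteins that also act in cell adhesion. Scn2b had the smallest within-group SD of all channel genes (0.0985 on the log2 scale, the 23.4th percentile of tested features). Its OVX libraries had 2936, 2672, 2768, 3246, 3310.5, 2785 and 3014 normalised counts, against 3299, 3509.9, 3161, 3258, 2923, 3437 and 3205 in SHAM libraries. Of the 7 OVX libraries, 3 lay below the lowest SHAM library and the other 4 within the SHAM range. The change was -0.14 (SE 0.0522, unadjusted p = 0.0137, limma adjusted p = 0.795). Scn3b averaged 22579 ± 4623 in Treatment, 23444 ± 4977 in Prevention, 22271.5 ± 4327 in OVX and 23901.5 ± 3821 in SHAM libraries. Scn4b, the subunit tied to resurgent current, ran from 1116 to 2040.0 normalised counts in 23 libraries and reached 3171 in SHAM replicate 5.

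The within-group SD on the log2 scale had a median of 0.21 over the 36 tested channel genes, beside 0.151 over all tested features. It was 1.05 for Scn11a, which was not tested, and 0.994 for Scn7a, the 98.4th percentile. Scn7a, a sensor of extracellular sodium best known from circumventricular organs, had 40.2, 50.6, 40.6, 173.5 and 88.4 normalised counts in Treatment libraries and 247.5, 37.2, 41.7, 270 and 38 in Prevention libraries. In OVX it had 60.2, 154.9, 24.9, 83.2, 33.1, 51.9 and 79.3 and in SHAM 80.3, 78.6, 38.6, 45.1, 125.2, 27.3 and 43.6. In each group the highest values were those of the libraries with a thalamus score over 10. Their mean within-group difference on the log2 scale was 1.8 for Scn7a, 0.55 for Scn9a, 0.53 for Cacna2d2, 0.37 for Scn4b, 0.33 for Scn1a and 0.31 for Cacna1g. Scn7a and Cacna1g were above all other libraries of their group in every group, which makes 2 of 36 channel genes (5.56%), beside 1.99% of all features. Cacna2d1, Cacna2d3, Scn3b and Scn8a were below in every group, 4 of 36 (11.1%), beside 1.61% of all features. The mean differences were -0.31 for Cacna2d1, -0.28 for Cacna2d3, -0.39 for Scn3b, -0.26 for Scn8a and -0.42 for Cacna1e. In bulk tissue, fewer cells of a type and less RNA per cell cannot be told apart.

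**Figure D3:**
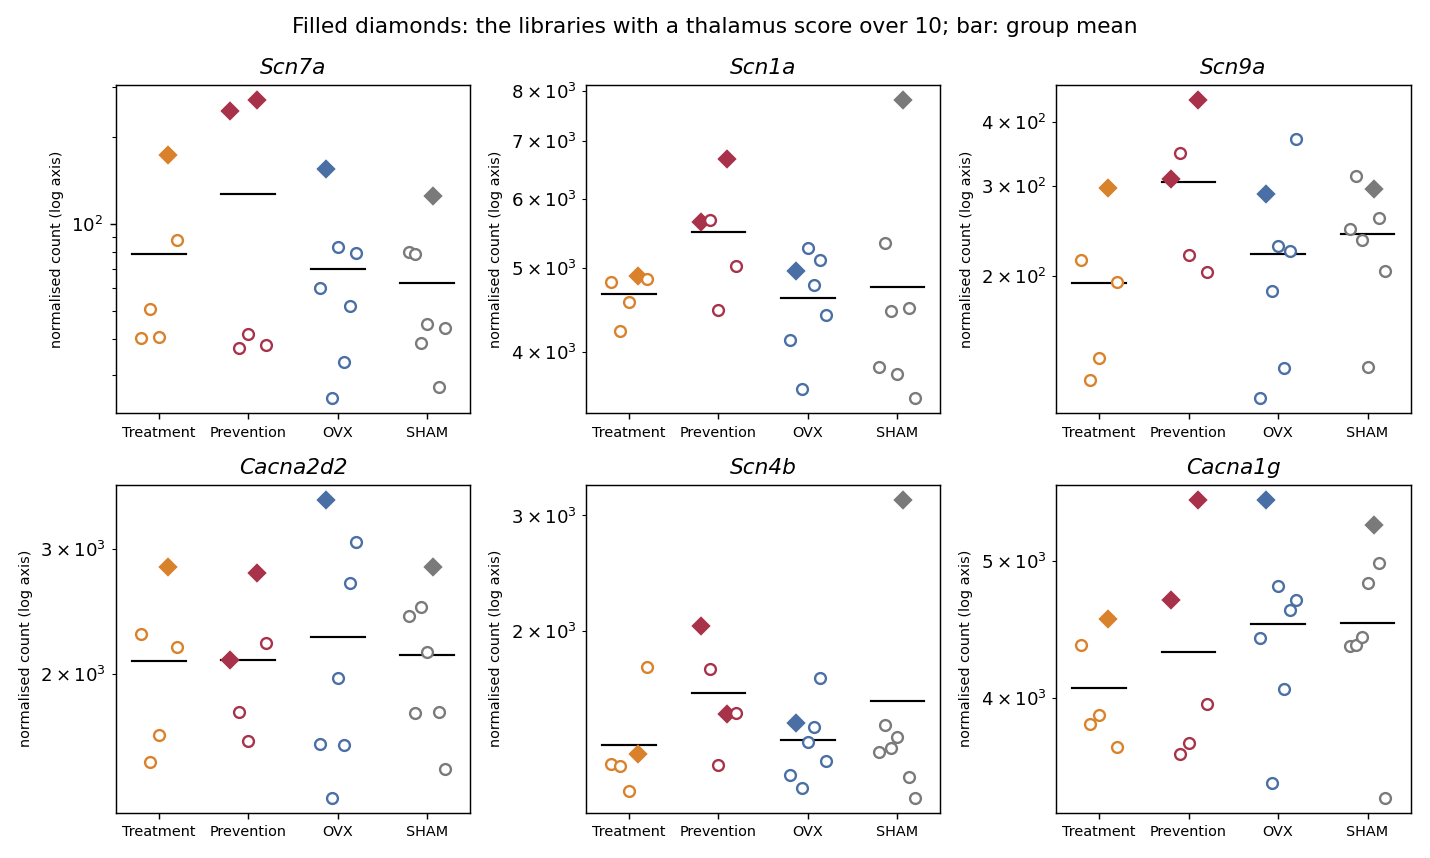
Normalised counts (y axis, log scale) of 6 channel genes in every library, by group, with a bar at the group mean; filled diamonds are the 5 libraries with a thalamus score over 10. The diamonds are the highest points of each group for Scn7a and Cacna1g, and are mixed with the others in at least 1 group for Scn1a, Scn9a, Cacna2d2 and Scn4b.

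Some alternative fits called channel genes in Prevention against OVX. With the thalamus score as a covariate, 6 of 36 channel genes passed (16.7%), beside 3.45% of all features, all higher in Prevention. They were Cacna2d1 (0.45, limma adjusted p = 0.0148), Cacna1a (0.305, 0.0156), Scn8a (0.31, 0.0193), Scn2a (0.27, 0.0298), Cacna1e (0.60, 0.043) and Cacna2d3 (0.19, 0.0457), with log2 change and limma adjusted p in parentheses. With the choroid plexus score as a covariate, Cacna1a (0.28, limma adjusted p = 0.0429) and Cacna2d1 (0.40, limma adjusted p = 0.046) passed, 2 of 36 (5.56%) beside 1.65% of all features. With the thalamus score and the library set as terms together, 0 of 36 channel genes and 0% of all features passed, and the changes were 0.43 for Cacna2d1, 0.45 for Cacna1e and 0.13 for Cacna1a. Without OVX replicate 7, 481 of all features and 3 channel genes passed: Cacna1a (0.31, limma adjusted p = 0.0244), Cacna2d1 (0.43, 0.0357) and Cacna1e (0.62, 0.0499). Without the 5 libraries with a thalamus score over 10, 0 channel genes and 0 of all features passed, and the changes were 0.32 for Cacna1a, 0.38 for Cacna2d1 and 0.55 for Cacna1e. The part of the library set in these results was not tested apart from the group, since all Prevention libraries are of the high set.

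The features most like Scn7a were found by Pearson's r over the 24 libraries after subtraction of group means, among 14178 other features with a mean of at least 50. They were Pygl (r = 0.916), Kcnh2 (0.895), Trh (0.894), Engase (0.887) and Syt9 (0.872), and r was 0.806 to 0.897 within the 17 low-set libraries. For the low set, too, the group means of all 24 libraries were subtracted. Pygl encodes a glycogen phosphorylase, Kcnh2 a potassium channel and Trh the precursor of thyrotropin-releasing hormone. Scn7a was chosen for this after its values were seen, and all of these values share the same libraries, so the likeness is a description.

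Some pairs of channel genes were correlated within groups, in either direction. The share of such pairs among other features was not computed, so it is not known whether the count is particular to channel genes. Over the 630 pairs of the 36 tested genes, Pearson's r of log2 values with group means subtracted (n = 24 libraries) had a median of 0.0145, and 144 pairs had an adjusted permutation p under 0.05, of which 90 were positive and 54 negative (100000 resamples within groups, two-sided, adjusted over the 630 pairs). The highest pair was Cacna1h, a T-type pore, and Cacng8, an AMPA receptor partner, with r = 0.931 and Spearman's rho = 0.903 (permutation p = 1e-05 for both, the smallest these resamples can give; adjusted p = 0.0009 for r and 0.00105 for rho). Their r was 0.899 without the 2 libraries farthest from the median of Cacna1h, 0.918 in the low set (n = 17), 0.957 in the high set (n = 7) and 0.907 over the 19 libraries with a thalamus score up to 10. Cacna2d1 and Scn2a had r = 0.895 and rho = 0.889 (permutation p = 1e-05 for both), with r = 0.838 without the 2 farthest and 0.797 over the 19 libraries. Cacna1e and Scn8a had r = 0.849 and rho = 0.92 (permutation p = 1e-05 for both), with r = 0.88 without the 2 farthest and 0.766 over the 19 libraries. In the opposite direction, Cacna1h and Scn1a had r = -0.811 and rho = -0.842 (permutation p = 2e-05 and 1e-05, adjusted p = 0.0009 and 0.00105), with r = -0.756 without the 2 farthest and -0.737 over the 19 libraries. These 4 pairs kept their sign over the 19 libraries with a thalamus score up to 10. For every r over part of the libraries, the subtracted group means were those of all 24 libraries. Offsets between groups can thus remain in these values, which are not free of the libraries left out.

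**Figure D4:**
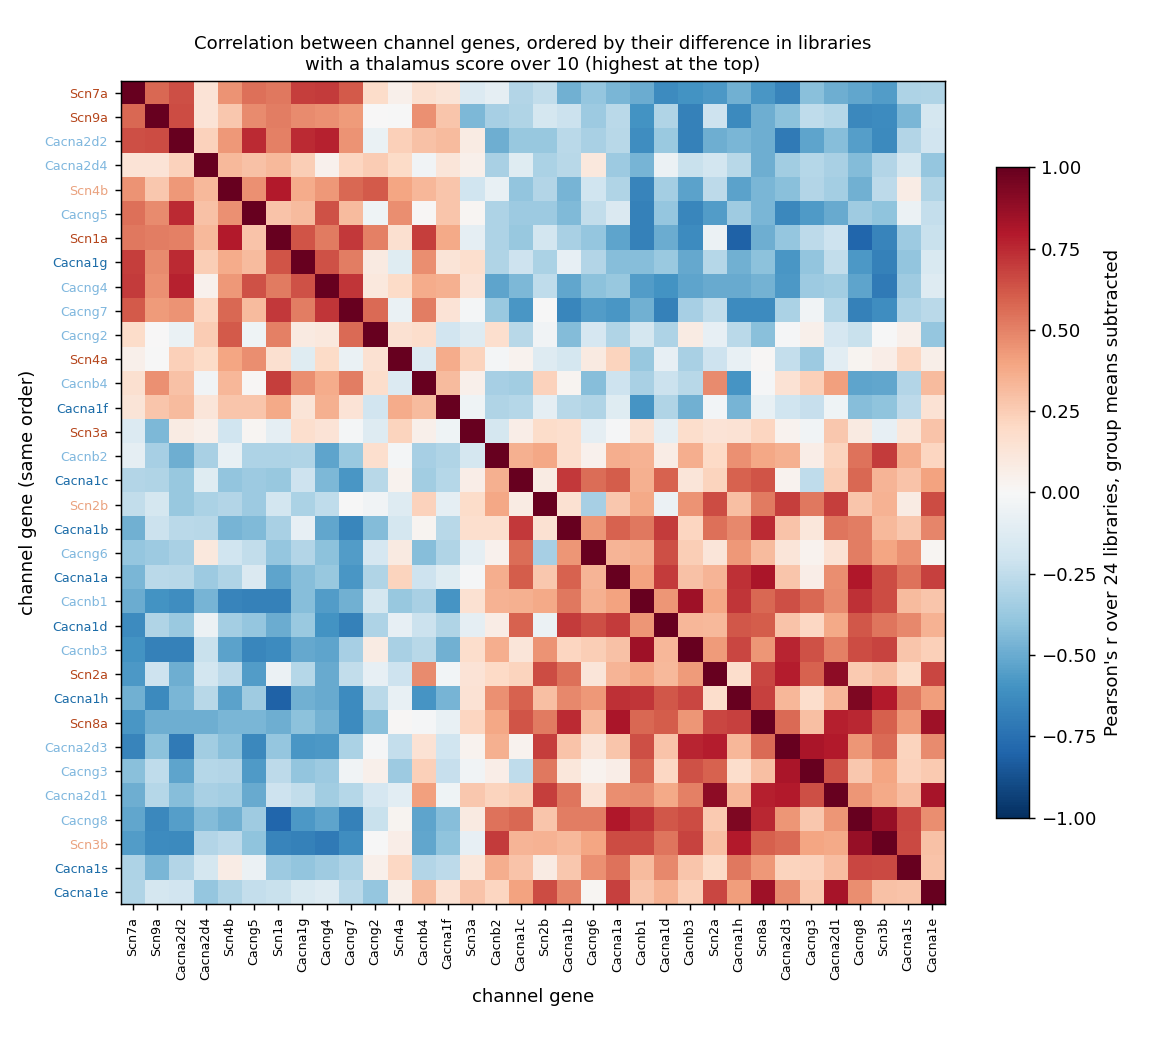
Pearson's r (colour) between each pair of 34 of the tested channel genes over 24 libraries with group means subtracted, ordered by the gene's difference in libraries with a thalamus score over 10, highest at the top. Pairs among Scn7a, Cacna2d2 and Cacna1g, near the top left, and among Cacna1h, Cacng8, Scn8a and Cacna2d1, near the bottom right, are positive, and r between these 3 and these 4 genes is negative.

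Partner genes of the channels were described from a list of calcium channel partners (17 of 20 tested), sodium channel partners (13 of 14 tested) and the sodium leak channel (3 of 5 tested). Nalcn alone passed, and in Prevention against OVX alone: 1 of the 33 tested partner genes (3.03%), beside 0.304% of all features. Nalcn, the pore of the sodium leak channel that helps set resting potential, had 4454, 4785, 4896, 5064 and 5114 normalised counts in Prevention libraries, against 4084.5, 3703, 3746, 4487, 4244, 3965 and 4623 in OVX libraries. Of the 5 Prevention libraries 4 lay above every OVX library. Nalcn averaged 4634 ± 176 in Treatment, 4863 ± 264 in Prevention, 4122 ± 352 in OVX and 4466 ± 179 in SHAM libraries (SD). It rose by 0.24 on the log2 scale in Prevention against OVX (SE 0.0509, limma adjusted p = 0.0393). With the set term the change was 0.25 (SE 0.096, limma adjusted p = 0.999). The call was also lost without any one of the 5 Prevention libraries, without OVX replicate 1, 2, 3 or 6 and without SHAM replicate 4 or 6, with changes of 0.22 to 0.27 over all single libraries left out. Unc80, a scaffold of the same leak channel, had a change of 0.44 (limma adjusted p = 0.0798), and 0.27 with the set term. Among the sodium channel partners, Ank3, which encodes the ankyrin that anchors sodium channels at the initial segment, had 0.19 (limma adjusted p = 0.0794), and 0.01 with the set term. The medians in Prevention against OVX were 0.0011 for calcium channel partners, 0.06 for sodium channel partners and 0.24 for the leak channel genes, beside 0.00081 for all features. In OVX against SHAM they were -0.05, -0.12 and -0.12, with 0 genes called.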

How the data were processed

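The authors quantified reads with kallisto 0.43 and normalised with DESeq2, per the submitters' processing notes. The genome build is not given in the sources used here. All deposited values are normalised counts, a signal per gene and library with arbitrary scale that the authors made; totals ran from 35.4 to 38.8 M (M for mega) per library, and all 39 genes matched RefSeq symbols. Depth was estimated from the smallest step between values, so no counting intervals are given.

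The channel genes, lists and tests were chosen with earlier results of these data known. Log2(normalised count + 1) was fitted in R 4.3.3 with limma 3.58.1, all 24 libraries in 1 fit with a mean per group, 6 contrasts, moderation along the mean-variance trend, and Benjamini-Hochberg adjustment over 16119 features with a mean of at least 10. The pipeline was tested on simulated data. These had independent noise for each gene and no library sets or thalamic RNA, so the test does not cover them.

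Values of some channel genes are not reported here, though they count in the totals. Genes named per comparison are those called, or the 3 smallest p; large SDs; called partners and examples chosen after their values were seen. A rule by level per coding length could not be applied without lengths, so levels are not compared between genes. Alternatives were other pseudocounts, filters, scalings, libraries in the fit, weights, a replicate block, the library set, tissue scores as covariates, and leaving out each library. Leaving out the libraries with high thalamus scores, the thalamus score with the set term, and the GC box search were added after seeing the data. Permutations and figures used Python 3.11.15, numpy 2.4.6 and matplotlib 3.10.9.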

Additional observations from a re-analysis of the deposited data

Results flagged for a closer look

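Of 144 pairs of a tested channel gene and a group, 11 were flagged by Dixon's ratio. In these, the gap of 1 library to the nearest other, divided by the group's range of log2 values, exceeded the 95% critical value. Chance gives about 1 in 20, and the pairs share libraries, so they are not independent. Values below are normalised counts.

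In the Treatment group, replicate 6 was the lowest for Cacna2d1 (3253, the others 4279.6 to 4475) and for Scn2a (11870.3, the others 13507 to 14230), and replicate 1 was the lowest for Cacng2 (2023, the others 2386 to 2520.4). In the Prevention group, replicate 4 was the lowest for Scn3b (15019, the others 23841 to 27734), and replicate 5 was the highest for Scn4a (255.5, the others 200 to 210.3). Treatment replicate 6 and Prevention replicate 4 are libraries with a thalamus score over 10.

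In the OVX group, replicate 6 was the highest for Cacna1f, a gene best known from the retina (72.46, the others 17.33 to 26.43). In the SHAM group, replicate 5, the library with the highest thalamus score, was the lowest for Cacnb1 (5010.3, the others 6102 to 6690) and the highest for Cacng2 (3072, the others 2386 to 2640.5) and Scn4b (3171, the others 1116 to 1442). SHAM replicate 3 was the lowest for Cacnb2 (1673, the others 2006 to 2255), and SHAM replicate 4 was the highest for Scn3a (2255, the others 1602 to 1773).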

How the results depend on the processing

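The count of channel genes called stayed at 0 in 271 of 274 combinations of comparison and alternative. The exceptions were all in Prevention against OVX: 2 with the choroid plexus score as a covariate, 6 with the thalamus score as a covariate, and 0 to 3 with 1 library left out (3 without OVX replicate 7). The count of partner genes called in Prevention against OVX was 0 with the 2 groups alone, library weights, the replicate block, the library set as a term, the thalamus score and set together, or without the libraries with a thalamus score over 10. It was 2 with the choroid plexus score, 5 with the thalamus score, and 0 to 2 with 1 library left out. Among the changes of single genes recomputed under every alternative (Nalcn and the channel genes called or with the 3 smallest p of a comparison), 2 values reversed, both of Cacna1a in Prevention against SHAM: -0.0949 with the set term and -4.728e-05 with the thalamus score and set together. In Prevention against OVX the count over all features was 49, and 97 with a filter at a mean of 100, 5 with the 2 groups alone, 3 with the replicate block, 266 with the choroid plexus score, 556 with the thalamus score, 0 with the set term, and 1 to 481 with 1 library left out. The cause of these shifts was not tested. The values gave no sign that replicate numbers pair the libraries, which does not exclude pairing. The 30 pairs with the same number in other groups had a median r of -0.124, with 8 over 0.1. For the 184 pairs with another number in other groups, the median r was 0.0352, with 73 over 0.1. The replicate block called 0 channel genes in every comparison. Quantile normalisation and upper quartile rescaling left the sign of every class median as it was. Depth was not recorded as counts, so precision rests on the spread between 5 to 7 libraries a group.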
